A study of Mus musculus with 6 samples.

Results

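Wnt ligands, their receptors and the regulators of the pathway were examined in taste cells that had been isolated from circumvallate (CV) and foliate (Fol) papillae, the main taste fields of the mouse tongue, in C57BL/6 mice. The genes were chosen by name and comprised all genes of the table named as Wnt, Fzd, Rspo, Dkk or Sfrp with a number, together with Lgr4, Lgr5, Lgr6, Axin1, Axin2, Lrp5, Lrp6, Rnf43, Znrf3, Ctnnb1, Tcf7, Lef1, Tcf7l1, Tcf7l2 and Wif1. This gave 56 of the 23361 genes. RNA of isolated taste cells was sequenced in 3 libraries from mice of 2 months and 3 libraries from mice of 6 months, each a pool of cells from animals whose sex is not given in the sources used here. A library pooled 4 mice at 2 months and 3 mice at 6 months, so pool size and age cannot be told apart. The table holds 1 FPKM value for each age, which is an amount of RNA fragments per gene that is corrected for transcript length and for the size of the library, estimated by the authors over the 3 libraries. No value per library was used, and the authors' own p-values were left out, so no SD or test accompanies any value below and no difference between the ages is set against the spread between pools. FPKM does not show how deeply a library was sequenced, so depth is unknown.

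Wnt proteins are secreted lipid-modified ligands that bind Frizzled receptors together with the co-receptors Lrp5 or Lrp6. In the canonical branch, this binding halts a destruction complex built on Axin, β-catenin accumulates, and Tcf/Lef factors that carry β-catenin switch on target genes. The pathway maintains progenitor cells in many epithelia, and in the tongue it acts both in the formation of taste papillae and in the renewal of adult taste cells.

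Markers of taste cells and of keratinocytes were both present. The summed FPKM of 5 markers of type II taste cells (Trpm5, Plcb2, Gnat3, Tas1r3 and Itpr3) was 212.4 at 2 months and 219.4 at 6 months. On the log2(FPKM + 1) scale, 6 minus 2 months, Gnat3 (-0.08) and Trpm5 (-0.07) were lower. Plcb2 (0.05), Itpr3 (0.26) and Tas1r3 (0.47) were higher. For 5 markers of type III cells the sums were 31.3 and 36.3, and for 3 markers of type I cells 76.1 and 66.4. All 5 markers of type III cells were higher at 6 months, by 0.15 to 0.34. Of those of type I cells, Entpd2 (-0.19) and Kcnj1 (-0.23) were lower. Slc1a3, at 0.710 and 0.988 FPKM, was higher (0.22). Krt8 and Krt19, keratins of taste bud cells, summed to 542.6 and 458.8 FPKM and were both lower at 6 months, with differences of -0.25 and -0.23 on the log2(FPKM + 1) scale. The part of taste cell content in the values of the Wnt genes was not tested. Of 4 basal keratinocyte markers, Krt5 (-0.15) and Trp63 (-0.17) were lower at 6 months, and Krt14 (0.25) and Itga6 (0.0043) were higher. Together they summed to 3602 and 3618 FPKM. Krt14 is also expressed in progenitors that renew taste cells, so this sum does not separate the taste lineage from the epithelium around it. Fewer cells of a type and less RNA per cell cannot be told apart in such bulk samples.

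Of the 56 genes, 34 had a mean of at least 1 FPKM over both ages and are called expressed here. Each of the 34 had at least 2.01 FPKM in both ages, so none of them passed through the higher age alone. Differences between the ages are those of log2(FPKM + 1), with the 2 month value subtracted from the 6 month value, a scale that understates differences of weakly expressed genes. Among the 34 expressed genes, 17 had a lower and 17 a higher value at 6 months, and the median difference was 0.0020. Over all 12652 expressed genes of the table the median difference was -0.01, and 53.7% were lower. The direction of small differences depended on the scaling. With the 6 month values multiplied by 1.03, which equalizes the upper quartiles of the ages, 11 of the Wnt genes were lower and 23 were higher, and 42.3% of all expressed genes were lower.

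On the log2(FPKM + 1) scale, a 1.5-fold difference or more was reached by 0 of the 34 Wnt genes in either direction. Of all expressed genes, 1.72% were lower and 1.05% were higher by that much. At 1.2-fold, a limit chosen after seeing the values, 3 of the 34 genes were lower, which is 8.82% against 6.49% of all expressed genes. They were Wif1, Lef1 and Dkk3. Wnt7b was the 1 gene of the 34 that was higher at that limit, or 2.94% against 4.34% of all expressed genes. These shares of members are near the background. The median size of the difference, regardless of sign, was 0.077 for the Wnt genes and 0.092 for all expressed genes. The middle 50% of the Wnt genes lay between -0.07 and 0.08, and that of all expressed genes between -0.10 and 0.08.

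**Figure D1:**
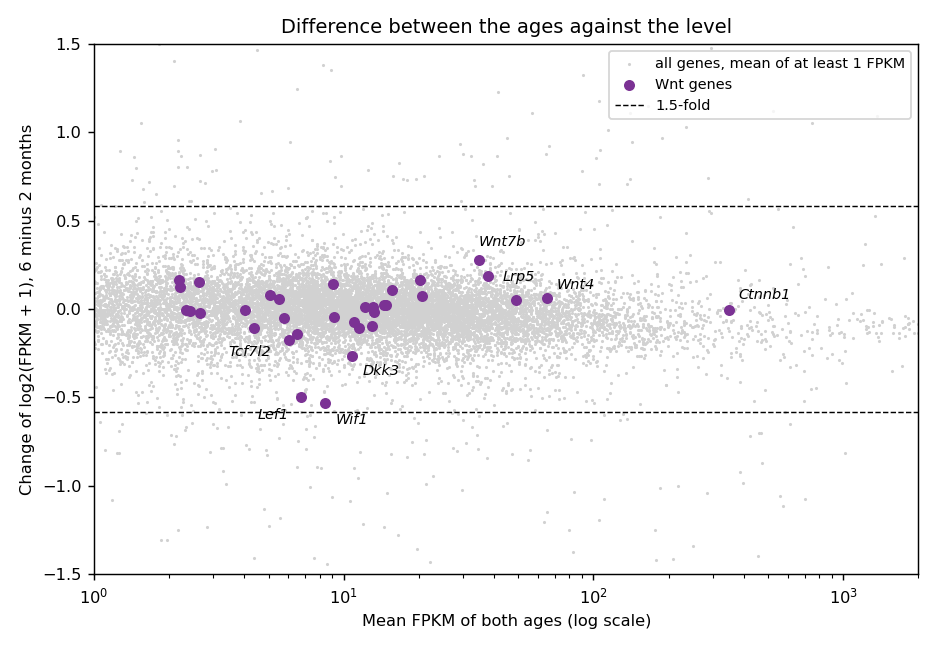
Change of log2(FPKM + 1) from 2 to 6 months (vertical axis) against the mean FPKM of both ages (horizontal axis, log scale) for the 34 expressed Wnt genes in purple and all 12652 expressed genes in grey, of which 201 lie outside the axes. No Wnt gene reaches the dashed lines at 1.5-fold, and Wif1 and Lef1 lie closest to the lower line.

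Ligands were the largest family by summed level apart from β-catenin. The table lists 19 Wnt genes, and 8 of them were expressed. Wnt4, a ligand with known roles in kidney and ovary formation, was the most abundant at 64.0 FPKM in 2 month and 66.8 FPKM in 6 month taste cells. Wnt7b followed at 31.4 and 38.3 FPKM. Wnt4 and Wnt7b together made up 65.1% of the summed ligand FPKM at 2 months and 66.7% at 6 months. Wnt10a, a ligand whose loss in humans and mice affects teeth, skin appendages and the tongue papillae, was at 14.9 and 16.2 FPKM. Wnt5a, a ligand best known for non-canonical signaling that orients and moves cells, was at 13.4 and 13.2 FPKM, and Wnt9a was at 11.3 and 10.7 FPKM. The remaining expressed ligands were lower. Wnt11, also known for non-canonical signaling, was at 4.90 and 5.23 FPKM. Wnt5b was at 2.67 and 2.62 FPKM. Wnt3a, a standard canonical ligand, was at 2.01 and 2.38 FPKM.

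The 9 leading ligands, the 9th being Wnt6 just under the limit with 0.934 and 0.985 FPKM, stood in the same order at both ages. Whether neighbours in this order differ beyond the spread between pools is not known without values per library. The largest difference among ligands was that of Wnt7b, at 0.28 on the log2(FPKM + 1) scale, and 3.97% of all expressed genes had a difference at least as high. AU022754, an antisense transcript annotated across Wnt7b on the opposite strand, was at 0.532 and 0.745 FPKM. Strand was not stated to be used in the authors' counting. The overlap is one of whole gene spans, and exons were not compared. Whether reads of one gene were counted for the other was therefore not tested. The other expressed ligands ranged from -0.07 for Wnt9a to 0.17 for Wnt3a. Of the 8, 5 were higher and 3 lower at 6 months, and 7 were higher after upper quartile scaling, which turned Wnt5a and Wnt5b. Among all expressed genes 46.3% were higher, and 57.7% after the scaling. The summed FPKM of all 19 ligands was 146.4 at 2 months and 157.6 at 6 months. The span of Wnt5b overlaps that of Fbxl14, a gene on the opposite strand at 10.4 and 10.5 FPKM. Whether its reads enter the low values of Wnt5b was not tested.

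The other 11 ligands had a mean under 1 FPKM. Besides Wnt6, the highest of them were Wnt2b with 0.249 and 0.452 FPKM and Wnt16 with 0.358 and 0.419 FPKM, chosen here after seeing the values. Wnt3, Wnt10b, Wnt8b and Wnt9b had values between 0.00412 and 0.210 FPKM in both ages. Wnt2 was listed at 0 in both ages, Wnt1 at 0 at 2 months only, and Wnt7a and Wnt8a at 0 at 6 months only. A value of 0 in this table does not by itself show absence. Krt4, a keratin of the tongue surface, was listed at 7334 FPKM at 2 months and at 0 at 6 months, and its partner keratin Krt13 was listed at 0 in both ages.

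Several Wnt genes lie side by side in the genome, and in the 2 pairs with an expressed member the neighbours stood at unlike levels. Wnt6 (chromosome 1, 74754342 to 74785322 in GRCm38.p6, the RefSeq annotation) is followed after 6.70 kb by Wnt10a (74792019 to 74804176). Wnt10a was the third most abundant ligand and Wnt6 was just under 1 FPKM. Wnt3a (chromosome 11, 59248036 to 59290751) is followed after 16.1 kb by Wnt9a (59306849 to 59333552), which had 11.3 against 2.01 FPKM at 2 months. Farther along the same chromosome, Wnt9b (103727362 to 103775272) and Wnt3 (103774175 to 103818021) were both weakly listed, at 0.00418 and 0.158 FPKM at 2 months and at 0.00986 and 0.210 FPKM at 6 months. Wnt10b and Wnt1, 11.7 kb apart on chromosome 15, were both under 0.1 FPKM in either age.

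R-spondins, secreted proteins that strengthen Wnt signaling by binding Lgr receptors and removing the ubiquitin ligases Rnf43 and Znrf3 from the cell surface, were near or at 0. The highest of the 4, Rspo1, had 0.125 and 0.129 FPKM. Rspo2 had 0.0302 and 0.0224 FPKM, Rspo3 had 0.0253 and 0.0140 FPKM, and Rspo4 was listed at 0 in both ages. The receptors of these ligands were expressed. Lgr5, a marker of stem cells in several epithelia including the taste papillae at the back of the tongue, was at 14.4 and 14.7 FPKM. Lgr4 was at 13.1 and 13.2 FPKM. Lgr6, which marks progenitor cells of skin and taste buds, was at 6.89 and 6.14 FPKM, a difference of -0.14. The 3 Lgr genes thus differed between the ages by 0.14 or less on the log2 scale. Rnf43 was at 9.28 and 8.96 FPKM and Znrf3 at 5.37 and 5.64 FPKM, with differences of -0.05 and 0.06.

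Of the 10 Frizzled receptors, 9 were expressed. Fzd1 was the most abundant at 47.9 and 49.6 FPKM and made up 45.0% and 45.2% of the summed Frizzled level. Fzd6, a receptor of planar cell polarity in skin and hair, followed at 19.0 and 21.4 FPKM. Its difference of 0.16 was the largest of the family on the log2(FPKM + 1) scale. With a pseudocount of 0.1 in place of 1, Fzd8 (0.21) and Fzd4 (0.18) had larger differences than Fzd6 (0.17). Fzd10 was at 13.4 and 12.5 FPKM. Fzd7 was at 12.1 and 12.2 FPKM. The other expressed receptors of this family stood at about 2 to 5 FPKM. Fzd2 had 4.58 and 4.19 FPKM, a difference of -0.11. Fzd8 had 2.45 and 2.84 FPKM, and Fzd4, which also serves as the receptor of norrin, had 2.06 and 2.34 FPKM. Fzd3 had 2.44 and 2.41 FPKM and Fzd5 had 2.34 and 2.33 FPKM. Fzd9 alone was under the limit, at 0.176 and 0.114 FPKM. At 6 months 5 of the 9 were higher and 4 lower, and after upper quartile scaling 7 were higher, which turned Fzd3 and Fzd5. Among all expressed genes 46.3% were higher, and 57.7% after the scaling. The family summed to 106.4 and 109.9 FPKM.

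The co-receptors Lrp5 and Lrp6 take up the ligand together with a Frizzled and then bind Axin. Lrp5 was at 35.4 FPKM in 2 month and 40.4 FPKM in 6 month taste cells, a difference of 0.19. Lrp6 was at 8.57 and 9.57 FPKM, a difference of 0.14. Both were higher at 6 months, and 8.35% and 13.3% of all expressed genes had differences at least as high. Upper quartile scaling raises the 6 month values, so it could not turn these differences.

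**Figure D2:**
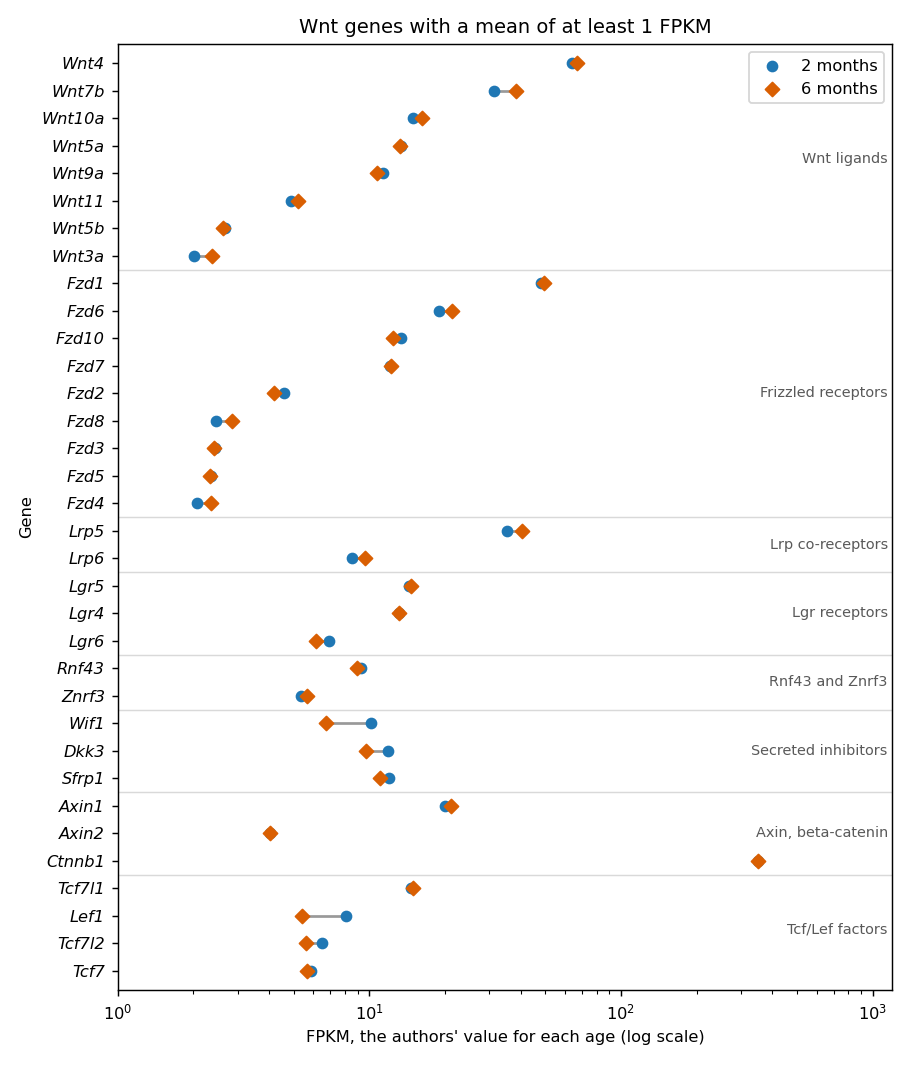
FPKM at 2 months (blue circles) and 6 months (orange diamonds) on a log axis for the 34 expressed Wnt genes, 1 value for each age without error bars, grouped by role. Ctnnb1 stands above all others at about 350 FPKM, and the widest gaps between the ages are those of Wif1 and Lef1, both lower at 6 months.

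Secreted inhibitors of the pathway comprised 9 genes, of which Wif1, Dkk3 and Sfrp1 were expressed. All 3 of these were lower at 6 months, also after upper quartile scaling. Of all expressed genes, 53.7% were lower, and 42.3% after the scaling, so a shared direction of 3 genes is not read as a result. Wif1, which binds Wnt proteins outside the cell, had the largest difference of all 34 genes. Its level was 10.1 FPKM in 2 month and 6.70 FPKM in 6 month taste cells, a difference of -0.53, and 1.91% of all expressed genes had a difference as low or lower. With a pseudocount of 0.1 in place of 1, Wif1 alone passed 1.5-fold, at -0.59. That is 2.94% of the 34 Wnt genes against 2.17% of all expressed genes lower by that much with the same pseudocount, a share near the background. Dkk3, a divergent member of the Dickkopf family that is not a typical Lrp antagonist, was at 11.8 and 9.68 FPKM, a difference of -0.26. Sfrp1, a secreted protein with a Frizzled-like domain that binds Wnt proteins, was at 11.9 and 11.0 FPKM, a difference of -0.11. Differences as low as that of Dkk3 or lower were found in 6.48% of all expressed genes, and for Sfrp1 in 24.3%.

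The inhibitors under 1 FPKM were Dkk1, Dkk2, Dkk4, Sfrp2, Sfrp4 and Sfrp5. Dkk1, which blocks Lrp5 and Lrp6, had 0.197 and 0.233 FPKM. Dkk2 had 0.534 and 0.291 FPKM, and Sfrp5 had 0.216 and 0.0929 FPKM. Sfrp2 and Sfrp4 were under 0.1 FPKM in both ages, and Dkk4 was listed at 0 at 2 months and at 0.0178 FPKM at 6 months. The Dkk and Sfrp genes in this range were named after seeing the values. All 9 inhibitor genes summed to 34.9 FPKM at 2 months and 28.1 FPKM at 6 months.

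Inside the cell, Ctnnb1, the gene of β-catenin, which is also a component of adherens junctions, was the most abundant gene of the set. Its values of 350.9 and 349.6 FPKM placed it above 97.8% of all expressed genes, and the ages differed by -0.01. Axin1, the scaffold of the destruction complex, was at 20.0 and 21.1 FPKM. Axin2, its relative and a widely used readout of canonical signaling, was at 4.05 and 4.03 FPKM, a difference of -0.01. The small differences of Ctnnb1 and Axin2 turned positive after upper quartile scaling, at 0.04 and 0.03.

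The 4 Tcf/Lef factors, which bind DNA and recruit β-catenin, were all expressed. Tcf7l1, often a repressor of target genes, was at 14.6 and 14.9 FPKM. Lef1 was at 8.06 FPKM in 2 month and 5.40 FPKM in 6 month taste cells, a difference of -0.50 that 2.13% of all expressed genes reached or passed downward. Tcf7l2 was at 6.48 and 5.63 FPKM, a difference of -0.18. Tcf7 was at 5.88 and 5.63 FPKM. Lef1, Tcf7l2 and Tcf7 were lower at 6 months, also after upper quartile scaling, and Tcf7l1 was higher. Lef1 was above Tcf7l2 and Tcf7 at 2 months and below both at 6 months, where Lef1 had 5.40 FPKM and the others 5.63 FPKM. Whether this order at 6 months goes beyond the spread between pools is not known without values per library. Lef1 differed by -0.46 after scaling and by -0.57 with the pseudocount of 0.1. Gm43352 on the opposite strand and Gm42449 on the same strand overlap the span of Lef1 and have no FPKM value here. Their part in the values of Lef1 was not tested.

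**Figure D3:**
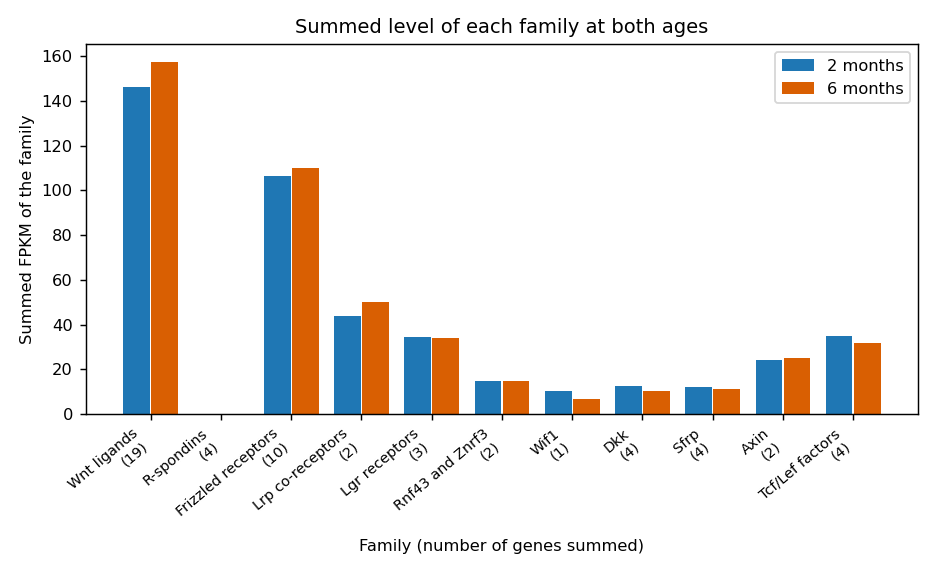
Summed FPKM of each family of Wnt genes at 2 months (blue bars) and 6 months (orange bars), with the number of genes summed in brackets and Ctnnb1 left out because of its level. Ligands lead with 146.4 and 157.6 FPKM, R-spondins are near 0, and Wif1 shows the widest relative gap.

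The RefSeq sequence before the transcript starts of Wif1 and Lef1 is shown because these 2 genes had the largest differences of the set. The bases run 5′ to 3′ on the plus strand of GRCm38.p6 and end just before the annotated start. Wif1 lies on chromosome 10 from 121034004 to 121100642, and its window is chr10:121033754-121034003. Lef1 lies on chromosome 3 from 131110297 to 131224357, and RefSeq gives 4 starts for it. The outermost window is chr3:131110047-131110296, and that of the innermost start, inside the gene, is chr3:131156044-131156293. Capitals mark TCAAAG or its reverse complement CTTTGA, the core recognised by Tcf/Lef factors.
Wif1: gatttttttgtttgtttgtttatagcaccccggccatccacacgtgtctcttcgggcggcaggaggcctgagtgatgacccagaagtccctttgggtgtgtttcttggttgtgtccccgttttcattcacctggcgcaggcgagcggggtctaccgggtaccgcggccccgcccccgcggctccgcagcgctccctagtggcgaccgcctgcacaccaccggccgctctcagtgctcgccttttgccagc
Lef1 outermost start: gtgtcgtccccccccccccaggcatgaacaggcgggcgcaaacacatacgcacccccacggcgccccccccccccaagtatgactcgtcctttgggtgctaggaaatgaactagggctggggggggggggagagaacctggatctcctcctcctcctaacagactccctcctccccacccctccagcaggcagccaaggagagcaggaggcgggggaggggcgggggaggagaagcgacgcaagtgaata
Lef1 innermost start: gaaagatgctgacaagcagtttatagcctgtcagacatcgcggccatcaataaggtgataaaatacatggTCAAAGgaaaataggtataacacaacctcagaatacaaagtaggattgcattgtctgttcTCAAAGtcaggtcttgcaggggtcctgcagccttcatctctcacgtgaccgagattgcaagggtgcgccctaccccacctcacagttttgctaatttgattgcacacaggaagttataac
The window of Wif1 and 3 of the 4 Lef1 windows, the outermost among them, hold no match to these letters. The innermost Lef1 window holds 2, which begin 180 and 120 bases before the start. The table gives 1 FPKM value for the gene, so transcripts from the 4 Lef1 starts cannot be told apart. TCAAAG on either strand was found in 13.8% of all 32851 windows of 250 bases in RefSeq, and in 5 of the 47 windows (10.6%) of the 37 Wnt genes that were matched. The genes with a match were Dkk1, Fzd1, Lef1, Wnt5b and Wnt11. The AP-1 motif TGANTCA, which reads the same on both strands and can overlap TCAAAG by its last 3 bases, was found in 6.75% of all windows and in 1 window of the Wnt genes, that of Wnt5b. Such matches describe letters in a window and not binding.

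Markers of other cell types also differed between the ages. Fibroblast markers summed to 44.1 FPKM at 2 months and 29.1 FPKM at 6 months, with both expressed ones of 7 lower. Dcn, at 42.0 and 27.3 FPKM, carried the sum and was lower by at least 1.5-fold. Pdgfra was at 1.10 and 1.05 FPKM, while Col1a1, Col1a2, Col3a1 and Lum were under 0.15 FPKM. Markers of serous glands went from 86.6 to 16.5 FPKM, with both expressed ones of 3 lower and Lipf carrying the sum. Schwann cell and nerve markers summed to 3.12 and 2.06 FPKM, with Sox10 the expressed one of 3. Of the keratins of suprabasal tongue epithelium, Krt10 was at 149.7 and 70.5 FPKM and Krt1 at 40.7 and 27.2 FPKM, while Krt4 was listed at 0 at 6 months only and Krt13 in both ages, as given above. Skeletal muscle markers were higher, at 7.13 and 16.4 FPKM, in all 4 expressed ones of 5. Leukocyte markers summed to 16.3 and 14.0 FPKM and endothelial markers to 1.96 and 1.95 FPKM, with 1 of 3 and 1 of 1 expressed markers lower. The part of these cells in the values of Wif1, Lef1 and the other Wnt genes was not tested.

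A list of 70 other genes of the pathway (secretion, co-receptors of non-canonical branches, Dishevelled, the destruction complex and nuclear partners of β-catenin) was examined in the same way. All 70 were in the table, 59 were expressed, and 0 reached 1.5-fold in either direction. Of all expressed genes, 1.72% were lower and 1.05% higher by that much, so a count of 0 is near the background. The median difference was 0.02, with 27 lower (45.8%, against 53.7% of all expressed genes) and 32 higher. After upper quartile scaling 20 were lower (33.9%, against 42.3%) and 39 higher. Notum, an enzyme that removes the lipid of Wnt proteins, was at 45.8 and 39.5 FPKM, more than any secreted inhibitor of the 56 genes. The 5 lowest differences were those of Gpc3 (a glypican, -0.32), Csnk1e (casein kinase 1 epsilon, -0.22), Sostdc1 (a secreted inhibitor of Wnt and BMP signaling, -0.21), Notum (-0.21) and Nkd1 (an inhibitor that binds Dishevelled, -0.19). The 5 highest were those of Dact2 (a Dishevelled-binding protein, 0.39), Bcl9l (a β-catenin co-activator, 0.35), Apcdd1 (a membrane inhibitor, 0.32), Ptk7 (a planar polarity co-receptor, 0.25) and Dvl3 (a Dishevelled, 0.23). Dact2 went from 9.20 to 12.4 FPKM and Bcl9l from 15.8 to 20.5 FPKM.

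Genes known as targets of canonical signaling were examined as a list of 36, of which 32 were expressed and 7 belong to the 56 genes as well. Notum, Nkd1 and Apcdd1 are also in the list of 70 other pathway genes, so the lists are not independent. The median difference was -0.03, with 21 lower (65.6%, against 53.7% of all expressed genes) and 11 higher. After upper quartile scaling it was 0.0058, with 15 lower (46.9%, against 42.3%) and 17 higher. Of the 32, 1 was lower by at least 1.5-fold, which is 3.13% against 1.72% of all expressed genes, and 0 were higher. That gene was Jun, a part of the AP-1 factor, at 90.3 and 40.1 FPKM. The paper follows Jun and reports it as lower in the older mice. The list was chosen with earlier results of these data known, so Jun is not an independent result for Wnt targets. No other expressed gene of the list reached 1.5-fold in either direction. Lef1 came next, followed by Bambi (a pseudoreceptor of TGF-β signaling) at -0.33, Ascl2 (an intestinal stem cell factor) at -0.22 and Tcf4 (an E protein, distinct from Tcf7l2) at -0.21. At the other end were Vegfa (a vascular growth factor) at 0.34, Apcdd1 at 0.32, Ccnd1 (cyclin D1) at 0.28, Jag1 (a Notch ligand) at 0.18 and Ephb2 (an ephrin receptor) at 0.17. Ccnd1 was at 76.1 and 92.3 FPKM. Feedback regulators of the pathway in this list did not share a direction. Lef1 (-0.50), Notum (-0.21) and Nkd1 (-0.19) were lower and Apcdd1 (0.32) was higher, while Axin2, Lgr5, Rnf43, Znrf3 and Tcf7 lay between -0.05 and 0.06.

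**Figure D4:**
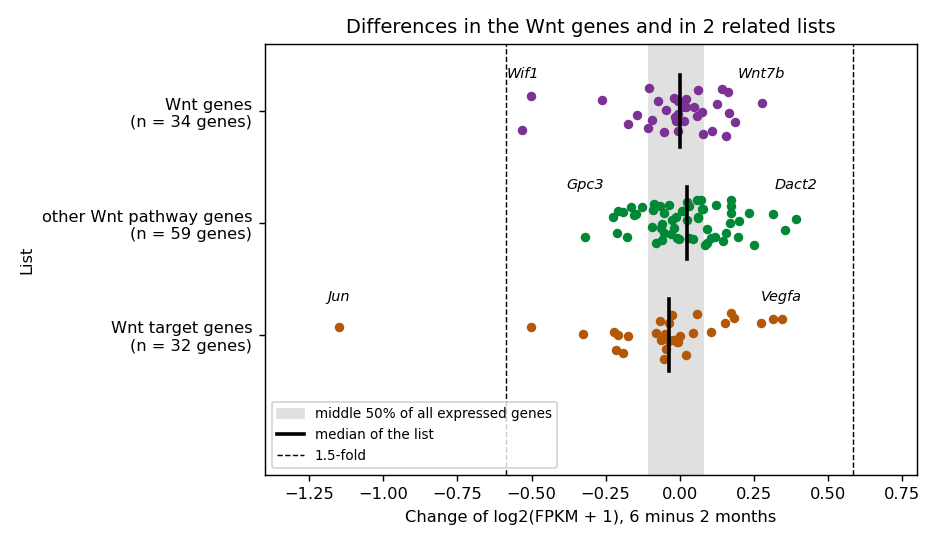
Change of log2(FPKM + 1) from 2 to 6 months for the 34 expressed Wnt genes, 59 other pathway genes and 32 target genes. Each point is 1 gene, with random vertical spread, and genes shared between lists are drawn in each. The black bars are medians (0.0020, 0.02 and -0.03), all inside the grey band that holds the middle 50% of all expressed genes, and Jun is the only point past the dashed lines at 1.5-fold.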

How the data were processed

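Total RNA of pooled CV/Fol taste cells was poly(A) selected and sequenced by the authors on an Illumina instrument, with 3 libraries for each age. The authors mapped reads to GRCm38/mm10 with TopHat2 2.0.7 and the RefSeq annotation and quantified genes with Cufflinks 2.1.1 and Cuffdiff, as named in the submitters' processing notes and the methods. The deposited table gives 1 FPKM value per gene and age, estimated by the authors over the libraries. Its p-value column holds the authors' own comparison and was not used. The columns are lettered B and S, which match the sample titles of 6 and 2 months.

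Differences were computed as log2(FPKM + 1), 6 minus 2 months, with no test, since no value per library was used. Depth is unknown. Genes that averaged 1 FPKM or more over the ages counted as expressed, and the limit for a difference was 1.5-fold. All expressed Wnt genes are named, weaker ones where singled out, and from the 2 pathway lists the 5 largest differences in each direction. The genes and lists were chosen with earlier results of these data known. Alternatives were a pseudocount of 0.1, no filter, an average of 5 FPKM or more, limits of 2-fold and 1.2-fold and upper quartile scaling. The counting was tested on simulated data. Positions and promoter windows came from RefSeq tables and overlaps from GENCODE, both of GRCm38. Python 3.11.15, numpy 2.4.6, pandas 2.3.3 and matplotlib 3.10.9 were used.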

Additional observations from a re-analysis of the deposited data

How the results depend on the processing

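No paired analysis applied, because the sample labels give no pairing between the ages. Leaving out replicates could not be run because a value per library was lacking. The number of Wnt genes lower by at least 1.5-fold was 0, and 1 with a pseudocount of 0.1 (Wif1), or 2.94% against 2.17% of all expressed genes. At 1.2-fold, tried after seeing the data, it was 3, and 1 gene (Wnt7b) was higher, against 6.49% and 4.34% of all expressed genes. Without the filter, 54 genes had a value above 0 in place of 34 expressed. The count of expressed genes was 26 with a filter of 5 FPKM. The median difference ranged from 0.0020 to 0.04 over the alternatives, and the count of genes higher by the limit was 0 under the pseudocount, filter, 2-fold and scaling alternatives. Upper quartile scaling changed the sign of 6 of the 34 differences (Axin2, Ctnnb1, Fzd3, Fzd5, Wnt5a and Wnt5b), each by a shift of at most 0.04.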

Other observations

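Frzb, a secreted Frizzled-related protein whose symbol does not match the Sfrp pattern, was listed at 0 FPKM in both ages. Shisa2, a regulator that retains Frizzled and FGF receptors inside the cell, was at 4.38 FPKM in 2 month and 3.32 FPKM in 6 month taste cells, a difference of -0.32. Both genes were picked after the values of the Wnt genes had been seen.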
